A study of Homo sapiens with 6 samples.

Results

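The expression of 10 genes that encode immune checkpoint ligands or related surface molecules of tumor cells was examined: CD274, PDCD1LG2, CD276, CD47, PVR, NECTIN2, VTCN1, NT5E, MICA and MICB. Each was found by an exact match of its symbol, which gave 10 of the 61806 genes in the table of counts and FPKM (fragments per kilobase of exon, scaled to the library total). RNA came from MDA-MB-231, an established human triple-negative breast cancer (TNBC) cell line, in 6 libraries, 2 for each of 3 lines. The shNC line carried a control vector, and the shHMGA2-1 and shHMGA2-2 lines each carried a different short hairpin RNA against HMGA2, a chromatin protein that binds AT-rich DNA. The knockdown lines were grown from single clones after lentiviral infection and puromycin selection, so an effect of the hairpin and a trait of the clone cannot be told apart; whether the shNC line was clonal was not stated. Nothing says that the 2 libraries of a line came from separate cultures, and p-values measure only the spread between these libraries. The library names differ from the sample titles that set the groups: those of the controls read WT, those of shHMGA2-1 carry SH2, and those of shHMGA2-2 name no hairpin.

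Checkpoint ligands on tumor cells bind receptors on T cells, natural killer (NK) cells and macrophages. PD-L1 (the product of CD274) and PD-L2 (PDCD1LG2) engage PD-1 and restrain T cells, and interferon gamma raises CD274 through JAK kinases and the transcription factor IRF1. CD47 is the "do not eat me" signal read by SIRPα on macrophages, CD73 (NT5E) makes adenosine outside the cell, and PVR and NECTIN2 bind both the inhibitory receptor TIGIT and the activating receptor CD226. MICA and MICB instead mark stressed cells for NK cells through the activating receptor NKG2D. Only RNA was measured, so nothing here gives the amount of any of these proteins on the cell surface.

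HMGA2, the targeted gene, was lower in each knockdown library. It had 2126 and 2161 counts with shNC, 858 and 989 with shHMGA2-1, and 435 and 482 with shHMGA2-2. The groups did not overlap, and HMGA2 stood at 40.8% of shNC in shHMGA2-1 and at 20.2% in shHMGA2-2. Libraries totaled 16461178 to 17167293 counts, so that a limit of 3 counts, used for a gene with none, corresponds to 0.175 to 0.182 CPM (counts relative to library depth), for counting error only. Markers of a mesenchymal-like TNBC line had a summed level of 946 to 967 FPKM with shNC, 839 to 865 with shHMGA2-1 and 892 to 903 with shHMGA2-2. This sum does not show the changes of single markers, which are given at the end. Of 15 leukocyte markers, 9 (among them PTPRC, CD3E, CD3D, CD4, MS4A1, NKG7, LYZ and FCGR3A) had at most 3 counts in every library, and the list summed to between 0.79 and 1.51 FPKM over all libraries. The other markers, CD8A, CSF1R, HCLS1, ITGAM, CD14 and CD68, exceeded 3 counts in at least 1 library. CD8A had 11 and 23 counts in shNC and 59 to 72 in the knockdown libraries. CSF1R had 26 and 6 counts in shNC and 1 or 2 in the knockdown libraries. ITGAM had 16 and 5 counts in shHMGA2-2, and HCLS1 is given at the end. The part of these genes in the results below was not tested. Of 12 leukocyte receptors for these or other checkpoint ligands, 7 had at most 3 counts in every library. CD226, a receptor of PVR and NECTIN2, was not among them, with 17 to 39 counts.

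The promoters of CD274, MICA and MICB are shown because CD274 had the largest difference between the knockdown lines and MICA and MICB have similar promoters. Each is the RefSeq sequence (GRCh38.p14) from 250 bases before to 50 bases after the annotated start, on the plus strand and written 5′ to 3′: chr9:5450292-5450591 for CD274, chr6:31403345-31403644 for MICA and chr6:31497895-31498194 for MICB. Capitals mark matches on either strand to TTCNNNGAA, the letters bound by STAT dimers, to the IRF element, a GAAA followed after 2 bases by another GAAA, or to GAANNTTC, a heat shock element core.
CD274 promoter: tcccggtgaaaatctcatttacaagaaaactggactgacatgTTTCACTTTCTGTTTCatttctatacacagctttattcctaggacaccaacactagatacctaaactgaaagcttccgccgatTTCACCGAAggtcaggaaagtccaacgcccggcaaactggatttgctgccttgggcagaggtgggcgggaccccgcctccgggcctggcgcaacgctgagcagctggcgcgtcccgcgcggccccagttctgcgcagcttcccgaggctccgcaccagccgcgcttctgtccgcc
MICA promoter: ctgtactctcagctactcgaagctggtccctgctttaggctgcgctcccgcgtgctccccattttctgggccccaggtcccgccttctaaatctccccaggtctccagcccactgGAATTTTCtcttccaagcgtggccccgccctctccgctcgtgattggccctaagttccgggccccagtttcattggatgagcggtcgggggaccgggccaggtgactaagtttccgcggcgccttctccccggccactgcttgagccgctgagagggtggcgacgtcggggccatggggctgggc
MICB promoter: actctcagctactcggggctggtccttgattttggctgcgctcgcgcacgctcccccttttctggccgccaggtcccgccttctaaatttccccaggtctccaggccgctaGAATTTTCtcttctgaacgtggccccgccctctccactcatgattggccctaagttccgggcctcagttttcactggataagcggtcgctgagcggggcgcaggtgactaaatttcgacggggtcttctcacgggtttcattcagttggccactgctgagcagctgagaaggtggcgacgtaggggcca

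The CD274 window held TTCACCGAA with its first base at -125 from the start and a pair of overlapping IRF element matches on the opposite strand at -208 and -202. Among 35116 promoters of the same length, TTCNNNGAA occurred in 7.66% and the IRF element in 3.57%. MICA and MICB each held GAATTTTC, at -135 and -139, and their windows were identical at 86.6% of 284 aligned bases; GAANNTTC occurred in 6.77% of promoters. Of the 10 members, 9 had 1 or more entries, giving 10 windows; PDCD1LG2 had none. TGANTCA (7.71% of promoters) was found in the VTCN1 window and TGACGTCA (1.85%) in that of NECTIN2, while ATATT (23%) and CACGTG (7.26%) were found in 0 of the 10. These matches describe the letters of the windows and are not measured binding sites.

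NT5E was by far the most abundant member, and VTCN1 was close to absent. In shNC, mean levels ± SD (n = 2) per length of exon ran from 171 ± 2.64 FPKM for NT5E through 24.9 ± 0.87 for NECTIN2, 18.4 ± 0.438 for PVR, 18.2 ± 0.453 for CD47, 18.1 ± 0.502 for MICB, 9.15 ± 0.283 for MICA, 6.18 ± 0.255 for CD276 and 5.53 ± 0.0919 for CD274 to 1.55 ± 0.141 for PDCD1LG2. PVR, CD47 and MICB could not be ordered there, since the libraries of neighbours overlapped, whereas the other neighbours did not overlap. NT5E made up 62.7% of the members' summed level of 274 FPKM and ranked 116 among all genes. In shHMGA2-1 the sum was 242 FPKM, CD47 had dropped below MICA, and NECTIN2 and MICB overlapped. In shHMGA2-2 the sum was 205 FPKM, of which NT5E gave 50.3%, and CD274 stood above CD276.

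The lines were compared by edgeR's quasi-likelihood test in a model with 3 groups over 16110 genes, with p-values adjusted by the Benjamini-Hochberg method. Of the 10 members, 9 passed the filter on low counts. In shHMGA2-1, 5 of the 9 fell against shNC (CD274, PDCD1LG2, CD276, CD47 and NT5E) and 2 rose (MICA and MICB), where 17.7% of all tested genes were lower and 15.8% higher. CD274, CD47 and PDCD1LG2 were differentially expressed genes (DEGs, an adjusted p under 0.05 and at least 2-fold), as were 8.49% of all genes. In shHMGA2-2, 2 of the 9 fell (CD47 and NT5E), against 29.2% of all genes, and 0 rose, against 29.5%. None of the 9 was a DEG there, against 21.3% of all genes; at an unadjusted p under 0.05, 3 were lower, 0 higher and 0 changed by 2-fold, and DESeq2 gave 2 lower, 0 higher and 0 DEGs. The share that fell in shHMGA2-2 was thus near that of all genes. The median log2 fold change of the members was -0.29 in shHMGA2-1 and -0.17 in shHMGA2-2, beside 0.01 and 0.03 over all genes. Both comparisons share the shNC libraries. The shares of all tested genes given here are also the background for the counts of each gene list below.

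Between the knockdown lines, CD274, CD276 and CD47 were higher in shHMGA2-2 than in shHMGA2-1, where 24.5% of all genes were. NT5E, NECTIN2 and MICB were lower, against 25.7% of all genes, and CD274 was the member that was a DEG, against 15.1%. With all 4 knockdown libraries as a single group against shNC, CD47 was lower, against 2.92% of all genes, 0 members were higher, against 2.34%, and 0 were DEGs, against 3.09%; at an unadjusted p under 0.05, 2 were lower and 0 were higher or changed by 2-fold, and DESeq2 gave 1 lower, 0 higher and 0 DEGs. CD47 did not pass in that grouping when either shNC library was left out (adjusted p = 0.231 without replicate 1 and 0.219 without replicate 2). Scaling by the upper quartile in place of TMM added MICA (0.26, adjusted p = 0.027) and MICB (0.20, adjusted p = 0.047) to the calls in shHMGA2-2, which made 4.

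**Figure D1:**
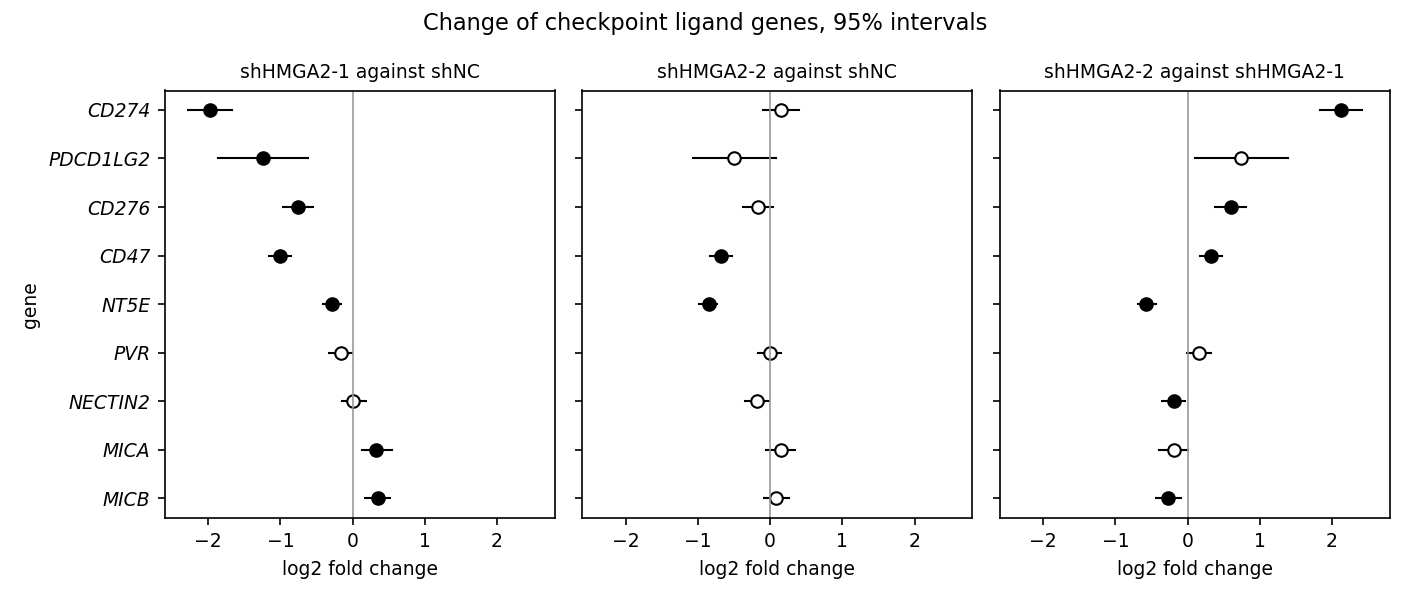
Log2 fold change with its 95% interval for the 9 tested members in shHMGA2-1 against shNC, in shHMGA2-2 against shNC and between the knockdown lines; filled points passed the test (adjusted p under 0.05) and open points did not. CD274 stands at -1.98, 0.15 and 2.13, whereas NT5E lies below 0 in each panel.

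CD274 (ENSG00000120217, chr9:5450503-5470566, plus strand), which encodes PD-L1, separated the knockdown lines more than any other member. It had 381 and 390 counts with shNC, 122 and 85 with shHMGA2-1, and 469 and 436 with shHMGA2-2. Both shHMGA2-1 libraries lay far below the others, and both shHMGA2-2 libraries lay above shNC. In shHMGA2-1 it fell to 25.4% of shNC (log2 fold change -1.98 ± 0.15 SE, adjusted p = 1.14e-10). In shHMGA2-2 the change was 0.15 ± 0.12 (adjusted p = 0.297), with a 95% interval from -0.10 to 0.40, which holds neither a fall nor a rise of 2-fold. The difference between the knockdown lines was 2.13 ± 0.14 (adjusted p = 7.79e-12), or 4.37-fold. With both lines pooled the value was -0.55 ± 0.69 (adjusted p = 0.64), an average of unlike lines. Since bulk RNA was measured, fewer cells with a transcript and less of it in each cell cannot be told apart for any member.

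PDCD1LG2 (ENSG00000197646, chr9:5510531-5571282, plus strand) encodes PD-L2, the other ligand of PD-1, and lies next to CD274. It was scarce, with 68 and 60 counts with shNC, 21 and 36 with shHMGA2-1, and 38 and 58 with shHMGA2-2. Both shHMGA2-1 libraries were below the rest, and those of shHMGA2-2 were also below shNC. The log2 fold change in shHMGA2-1 was -1.24 (SE 0.30, adjusted p = 0.00243), and it ranged from -1.70 to -0.89 with single libraries left out, under 2-fold without shHMGA2-1 replicate 1. It did not pass in shHMGA2-2 (-0.50 ± 0.28, adjusted p = 0.13, 95% interval -1.07 to 0.08) or between the knockdown lines (0.74 ± 0.31, adjusted p = 0.0522), and single libraries moved the latter from 0.39 (adjusted p = 0.371, without shHMGA2-1 replicate 1) and 0.43 (0.42, without shHMGA2-2 replicate 2) to 1.00 (0.0373, without shHMGA2-2 replicate 1) and 1.20 (0.0136, without shHMGA2-1 replicate 2). An antisense gene without a symbol, ENSG00000286162, overlaps both PD-1 ligand genes. Its highest count was 33, and its counts reached 16.5% of those of CD274 and 86.8% of those of PDCD1LG2 in a library; the strand setting of the counting is not known, so reads of the 2 strands may not have been separated. Its log2 fold change was -0.93 in shHMGA2-1 (adjusted p = 0.121), 0.15 in shHMGA2-2 (adjusted p = 0.773) and 1.07 between the knockdown lines (adjusted p = 0.0456). The next genes outward did not follow CD274: PLGRKT (0.03, adjusted p = 0.916) and RIC1 (-0.02, adjusted p = 0.942) did not pass in shHMGA2-1, and they fell by 0.67 and 0.47 in shHMGA2-2 (adjusted p = 0.00407 and 0.000628).

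Among 12 tested genes of the route from interferon gamma to IRF1, IRF1 was lowest in shHMGA2-1 and highest in shHMGA2-2, the order seen for CD274. IRF1 had 215 and 213 counts with shNC, 162 and 126 with shHMGA2-1, and 299 and 310 with shHMGA2-2, without overlap. It fell by 0.65 in shHMGA2-1 (adjusted p = 0.00113), rose by 0.43 in shHMGA2-2 (adjusted p = 0.00792) and differed by 1.08 between them (adjusted p = 6.13e-07), beside 2.13 for CD274. JAK1, a kinase of the receptor, also fell in shHMGA2-1 (-0.20, adjusted p = 0.0348) and rose in shHMGA2-2 (0.35, adjusted p = 0.000194). JAK2, another kinase of the receptor, did not pass in either line (-0.18 and 0.01, adjusted p = 0.441 and 0.966). SOCS3, a feedback inhibitor, fell in both lines, by 0.56 and 1.06 (adjusted p = 3.45e-05 and 7.7e-10). In all, 2 of the 12 rose and 4 fell in shHMGA2-1, and 5 rose and 3 fell in shHMGA2-2. Of 11 tested regulators of PD-L1 protein, 0 passed in shHMGA2-1 (1 lower and 0 higher at an unadjusted p under 0.05, and 0 by DESeq2). In shHMGA2-2, 3 of these regulators rose and 5 fell. Beside both lists, 15.8% of all tested genes rose and 17.7% fell in shHMGA2-1, and 29.5% rose and 29.2% fell in shHMGA2-2. CMTM6, which keeps PD-L1 at the surface, fell in shHMGA2-2 by 0.42 (adjusted p = 2.22e-05). Larger falls there, beside the 3 regulators that rose, were those of TRIM21, ZDHHC9 and GSK3B. They fell by 0.82, 0.76 and 0.73 (adjusted p = 2.48e-06, 4.29e-07 and 1.97e-08). CMTM4, also on this list, did not pass in either line (0.10 and 0.08, adjusted p = 0.498 and 0.534).

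**Figure D2:**
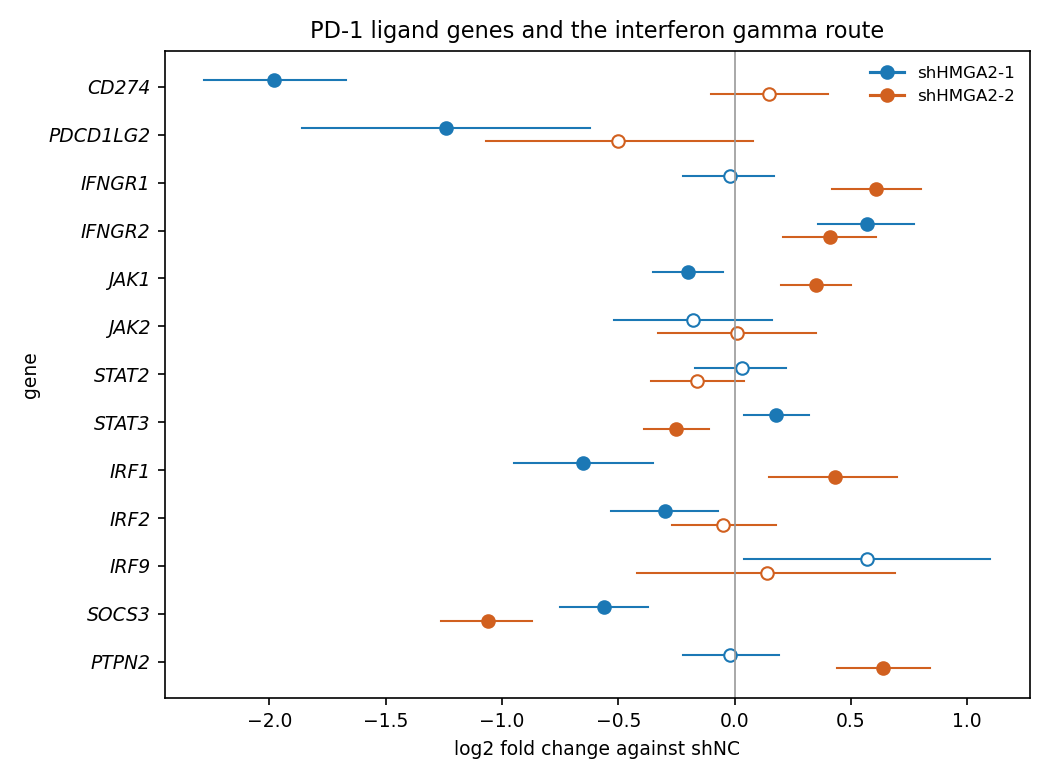
Log2 fold change against shNC with its 95% interval for both PD-1 ligand genes and genes of the interferon gamma route, in shHMGA2-1 and shHMGA2-2; filled points passed an adjusted p under 0.05. CD274 and IRF1 lie at -1.98 and -0.65 in shHMGA2-1 and at 0.15 and 0.43 in shHMGA2-2, while SOCS3 lies at -0.56 and -1.06.

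CD276 (ENSG00000103855, chr15:73683966-73714514, plus strand), which encodes B7-H3, a B7 family protein common on solid tumors, fell in shHMGA2-1 and not detectably in shHMGA2-2. It had 592 and 559 counts with shNC, 372 and 345 with shHMGA2-1, and 519 and 566 with shHMGA2-2. The shHMGA2-1 libraries did not overlap the others, while shHMGA2-2 overlapped shNC. The change was -0.76 ± 0.10 in shHMGA2-1 (adjusted p = 2.59e-06) and -0.17 ± 0.10 in shHMGA2-2 (adjusted p = 0.156, 95% interval -0.37 to 0.04), and the lines differed by 0.60 ± 0.10 (adjusted p = 3.51e-05). Of 12 other genes of the B7 and butyrophilin families, 7 were tested, of which 2 rose and 1 fell in each knockdown line. CD80 and CD86, the classic costimulatory ligands, had at most 3 counts in every library. VSIR, which encodes the inhibitory ligand VISTA, had 24 and 54 counts with shNC, 55 and 59 with shHMGA2-1, and 108 and 86 with shHMGA2-2. It rose in shHMGA2-2 (1.23 ± 0.28, adjusted p = 0.000482), with a change of 0.47 (adjusted p = 0.246) in shHMGA2-1.

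VTCN1 (ENSG00000134258, chr1:117143587-117210960, minus strand), which encodes B7-H4, had 0 counts in 5 libraries and 1 count in shHMGA2-1 replicate 2. All lines were under the limit of 3 counts, and it was not tested. Its neighbours TTF2 and TRIM45 were expressed and fell in shHMGA2-2 (-0.84 and -1.08, adjusted p = 1.03e-09 and 3.8e-06).

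CD47 (ENSG00000196776, chr3:108043091-108091862, minus strand) was the member that fell in both knockdown lines and also with the lines pooled. Its counts were 2594 and 2506 with shNC, 1298 and 1385 with shHMGA2-1, and 1661 and 1702 with shHMGA2-2, so that the 3 lines did not overlap. CD47 stood at 49.8% of shNC in shHMGA2-1 (2.01-fold lower, SE 0.07 on the log2 scale, adjusted p = 1.2e-10) and at 62.4% in shHMGA2-2 (-0.68 ± 0.07, adjusted p = 2.12e-08). It was thus lower in the line that kept more HMGA2, by 0.32 ± 0.08 (adjusted p = 0.000896). Its value in shHMGA2-1 lay at the 2-fold limit, and its log2 fold change ranged from -1.07 to -0.94 when single libraries were left out.

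Some partners of CD47 had larger changes than CD47, a difference that was not tested. THBS1, a secreted matrix protein that binds CD47, had 3072 and 3086 counts with shNC, 1486 and 1353 with shHMGA2-1, and 12097 and 12310 with shHMGA2-2. It fell by 1.20 in shHMGA2-1 (adjusted p = 6.9e-13) and rose by 1.91 in shHMGA2-2 (adjusted p = 6.12e-18). The receptor gene SIRPA, normally a gene of myeloid cells and neurons, had 0 counts in both shNC libraries, 2 and 2 counts with shHMGA2-1, and 129 and 138 with shHMGA2-2, at least 45.7-fold higher there than 3 counts per library would give in shNC. LRP1, a receptor that binds calreticulin and thrombospondin, fell in both lines, by 0.77 and 2.00 (adjusted p = 9.82e-08 and 1.94e-15). QPCT, a glutaminyl cyclase related to the enzyme that modifies CD47, fell by 1.84 in shHMGA2-2 (adjusted p = 1.46e-09) and had a change of 0.24 in shHMGA2-1 (adjusted p = 0.206). QPCTL, which encodes the modifying enzyme itself, did not pass in shHMGA2-1 or shHMGA2-2 (0.25 and 0.22, adjusted p = 0.107 and 0.111). Of 6 tested partners, 0 rose and 2 fell in shHMGA2-1 (2 higher and 3 lower at an unadjusted p under 0.05, and 0 and 3 by DESeq2), and 2 rose and 2 fell in shHMGA2-2.

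NT5E (ENSG00000135318, chr6:85449584-85495791, plus strand), which encodes CD73, fell in both knockdown lines and, unlike CD47, more in the line with less HMGA2. It had 13052 and 13344 counts with shNC, 10992 and 11839 with shHMGA2-1, and 7696 and 7752 with shHMGA2-2. The 3 lines did not overlap, and the levels were 169.6 and 173 FPKM, 141 and 153 FPKM, and 103 and 103 FPKM. The change was -0.29 ± 0.06 in shHMGA2-1 (adjusted p = 0.000589) and -0.85 ± 0.06 in shHMGA2-2 (adjusted p = 1.16e-11), and the lines differed by -0.57 ± 0.06 (adjusted p = 2.8e-08). NT5E remained abundant, at 55.4% of shNC in shHMGA2-2. With both lines pooled it did not pass (-0.54 ± 0.20, adjusted p = 0.165).

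Of 14 other genes that make, clear or sense adenosine, 10 were tested. Of these, 3 rose and 3 fell in shHMGA2-1, where 15.8% and 17.7% of all tested genes did. In shHMGA2-2, 3 rose and 6 fell, beside 29.5% and 29.2% of all tested genes. ENTPD1 (CD39), which acts before CD73, was low, at 0.70 to 0.73 FPKM in shNC, and fell in shHMGA2-2 (-0.99, adjusted p = 9.31e-06), with a change of 0.29 in shHMGA2-1 (adjusted p = 0.126). ADA, the deaminase that destroys adenosine, rose in both lines, by 0.93 and 2.02 (adjusted p = 0.00134 and 2.66e-09), from 44 and 46 counts in shNC to 101 and 81 and to 180 and 207. Of the adenosine receptors, ADORA1 had 0 counts in both shNC libraries, 23 and 13 counts with shHMGA2-1 (at least 5.94-fold higher, against 3 counts per library), and 2 and 6 with shHMGA2-2. ADORA2B, the most abundant receptor of the list, had 686 and 730 counts with shNC, 326 and 290 with shHMGA2-1, and 488 and 511 with shHMGA2-2, and fell by 1.28 and 0.58 (adjusted p = 5.68e-10 and 1.84e-05). ENTPD3, a further ectonucleotidase, had 15 and 17 counts in shNC and 7 and 2 in shHMGA2-2, where it fell by 1.88 (adjusted p = 0.0151). The list's median log2 fold change was 0.07 in shHMGA2-1 and -0.66 in shHMGA2-2.

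PVR (ENSG00000073008, chr19:44643798-44666162, plus strand) and NECTIN2 (ENSG00000130202, chr19:44846175-44889223, plus strand), the ligands shared by TIGIT and CD226, showed small differences at most. PVR (CD155) had 1877 and 1942 counts with shNC, 1941 and 1661 with shHMGA2-1, and 2042 and 1972 with shHMGA2-2. Its changes were -0.16 ± 0.08 in shHMGA2-1 (adjusted p = 0.114, 95% interval -0.33 to -0.003) and -0.008 ± 0.08 in shHMGA2-2 (adjusted p = 0.939, interval -0.17 to 0.15), and 0.16 ± 0.08 between the lines (adjusted p = 0.101). In counts, 1 shHMGA2-1 library lay within the shNC range and the other below it. Without replicate 1 of that line PVR passed against shNC (-0.26, adjusted p = 0.0045) and between the knockdown lines (0.26, adjusted p = 0.00321). CEACAM19 overlaps PVR on the same strand, with counts of up to 6.39% of those of PVR, and fell in shHMGA2-2 (-2.16, adjusted p = 5.56e-08).

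NECTIN2 (CD112) had 1620 and 1542 counts with shNC, 1808 and 1564 with shHMGA2-1, and 1407 and 1542 with shHMGA2-2. The lines overlapped or touched shNC. Its changes were 0.01 ± 0.08 (adjusted p = 0.929, interval -0.15 to 0.18) and -0.18 ± 0.08 (adjusted p = 0.0556, interval -0.35 to -0.02), the latter passing without shHMGA2-1 replicate 1 (adjusted p = 0.00979) or replicate 2 (0.00976) and with no filter (0.0417). The difference between the knockdown lines just passed (-0.19 ± 0.08, adjusted p = 0.0459) and did not pass without shHMGA2-1 replicate 1 (-0.10, adjusted p = 0.256), without shHMGA2-2 replicate 1 (-0.15, adjusted p = 0.274) or without shHMGA2-2 replicate 2 (-0.24, adjusted p = 0.0844). It also failed to pass without shNC replicate 1 (adjusted p = 0.0847) or shNC replicate 2 (adjusted p = 0.0901), and with DESeq2 (adjusted p = 0.106). The intervals of PVR and NECTIN2 hold no change of 2-fold in either line.

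The 3 tested relatives of these nectins all changed in both lines, unlike PVR and NECTIN2, for which no test of that difference was made. NECTIN1, an adhesion molecule, had 461 and 463 counts with shNC, 199 and 195 with shHMGA2-1, and 262 and 246 with shHMGA2-2 (-1.31 and -0.94, adjusted p = 4.48e-09 and 1.73e-07). NECTIN3, a partner of NECTIN2 and PVR in cell contacts, fell by 1.06 and 0.79 (adjusted p = 8.99e-09 and 2.39e-07). CADM4, a nectin-like molecule, rose by 1.66 and 0.86 (adjusted p = 2e-06 and 0.00335).

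MICA (ENSG00000204520, chr6:31399784-31415315, plus strand) and MICB (ENSG00000204516, chr6:31494881-31511124, plus strand) rose slightly in shHMGA2-1. MICA had 611 and 585 counts with shNC, 869 and 725 with shHMGA2-1, and 673 and 727 with shHMGA2-2. MICB had 843 and 877, 1177 and 1133, and 947 and 977 counts. In both genes every knockdown library was above the shNC libraries in counts. In shHMGA2-1 MICA rose by 0.33 ± 0.10 (adjusted p = 0.00998) and MICB by 0.35 ± 0.08 (adjusted p = 0.0022), that is 1.26- and 1.27-fold. In shHMGA2-2 the changes were 0.15 ± 0.10 (adjusted p = 0.211, interval -0.06 to 0.35) and 0.08 ± 0.08 (adjusted p = 0.426, interval -0.09 to 0.26). MICB was lower in shHMGA2-2 than in shHMGA2-1 (-0.27 ± 0.08, adjusted p = 0.00966), and for MICA that difference was -0.19 ± 0.10 (adjusted p = 0.11).

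The calls of these weakly changed genes depended on single libraries. MICA did not pass in shHMGA2-1 without shNC replicate 1 (adjusted p = 0.0647), shNC replicate 2 (0.126) or shHMGA2-1 replicate 1 (0.0927), nor with DESeq2 (0.0519), and MICB did not pass without shNC replicate 1 (0.0657). Between the lines, MICB did not pass without shHMGA2-2 replicate 1 (0.063) or replicate 2 (0.0614), and MICA passed without shHMGA2-1 replicate 2 (-0.30, adjusted p = 0.00814). MICA and MICB share some sequence. Of windows of 50 bases taken at every base, which overlap one another, 45 occur in transcripts of both. These are 1.89% of the windows of MICA and 1.61% of those of MICB. Their counts added together differed by -0.23 between the lines (adjusted p = 0.0111).

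Some other NKG2D ligands had larger changes than MICA and MICB, among them ULBP2 in both lines, a difference that was not tested. Of 5 tested, 2 rose in shHMGA2-1, where 15.8% of all tested genes rose. In shHMGA2-2, 4 rose and 1 fell, beside 29.5% and 29.2% of all tested genes. ULBP2 had 119 and 140 counts with shNC, 276 and 243 with shHMGA2-1, and 498 and 507 with shHMGA2-2, and rose by 0.92 and 1.87 (adjusted p = 1.09e-05 and 7.57e-12). ULBP3 had 253 and 253 counts in shNC and 602 and 566 in shHMGA2-2, where it rose by 1.13 (adjusted p = 4.13e-09); its change in shHMGA2-1 was 0.19 (adjusted p = 0.222). RAET1L went from 0 and 1 counts in shNC to 29 and 13 with shHMGA2-1 and 86 and 76 with shHMGA2-2. The ratio of its counts to those of shNC was 41.6 (95% counting interval 7.07 to 1681) and 166 (29.5 to 6614). RAET1G had 19 and 14 counts with shNC, 40 and 15 with shHMGA2-1, and 52 and 72 with shHMGA2-2, and rose in shHMGA2-2 (1.82, adjusted p = 0.00024). RAET1E fell there (-0.64, adjusted p = 0.00738). ULBP2, RAET1L and RAET1G are close paralogs, and how reads that fit more than 1 of them were counted is not known.

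**Figure D3:**
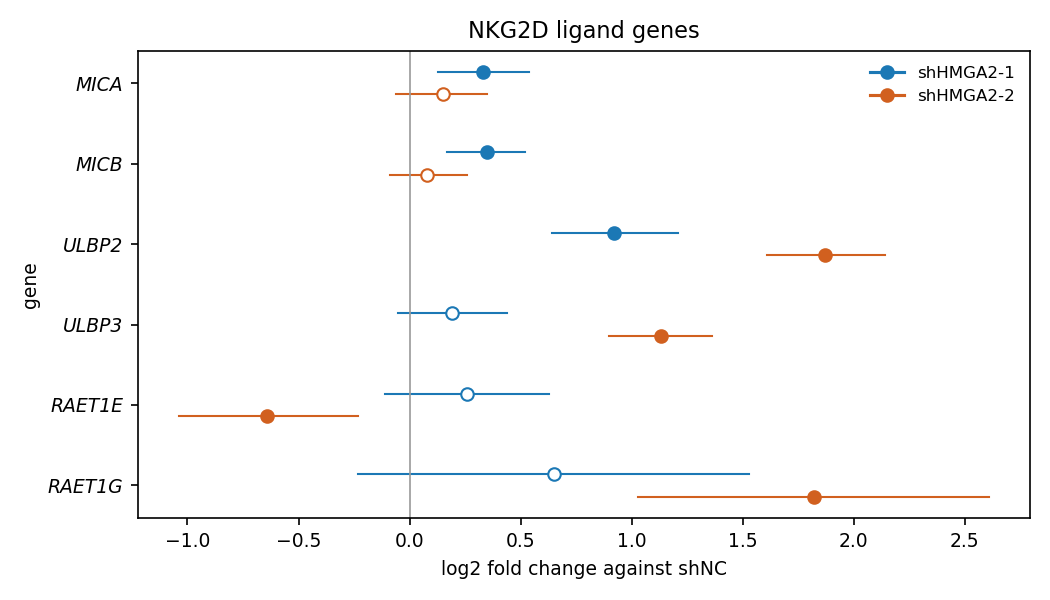
Log2 fold change against shNC with its 95% interval for MICA, MICB and 4 other NKG2D ligand genes in shHMGA2-1 and shHMGA2-2; filled points passed an adjusted p under 0.05. MICA and MICB lie at 0.33 and 0.35 in shHMGA2-1, while ULBP2 reaches 1.87 in shHMGA2-2; RAET1L, with 1 count in shNC, is not drawn.

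Of 5 genes for enzymes or helpers that shed NKG2D ligands from the surface, 3 rose and 1 fell in each knockdown line. ADAM17, a sheddase, rose by 0.26 and 0.44 (adjusted p = 0.0138 and 4.42e-05). ADAM10, another, rose by 0.77 in shHMGA2-2 (adjusted p = 2.16e-09) with a change of -0.13 in shHMGA2-1 (adjusted p = 0.175). The gene that fell was MMP14, also a sheddase, by 0.73 and 0.62 (adjusted p = 5.65e-09 and 2.56e-08). MMP14 also passed with the lines pooled (-0.67, adjusted p = 0.0127). Among 6 tested genes of a list of other, mostly inhibitory, ligands, 2 rose and 1 fell in shHMGA2-1, and 1 rose and 3 fell in shHMGA2-2. The gene that fell in shHMGA2-1 was CD58 (-0.41, adjusted p = 0.0052), a costimulatory ligand and not an inhibitory one. CD58 was also among those that fell in shHMGA2-2 (-0.88, adjusted p = 3.39e-07). CD24, which binds the macrophage receptor Siglec-10, went opposite ways: it had 91 and 91 counts with shNC, 235 and 230 with shHMGA2-1, and 54 and 57 with shHMGA2-2. It rose by 1.27 (adjusted p = 8.14e-07) and fell by 0.79 (adjusted p = 0.00116). TNFRSF14, the ligand of BTLA, rose in both lines, by 1.19 and 1.38 (adjusted p = 8.23e-05 and 3.04e-06).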

How the data were processed

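RNA of 6 MDA-MB-231 libraries was analysed, 2 each of shNC, shHMGA2-1 and shHMGA2-2, grouped by sample title. The authors deposited 1 table with raw read counts per gene, which are not normalized, FPKM values, positions and exonic sizes. The submitters' processing notes name HISAT2 version 2.2.1, HTSeq version 0.6.1 and GRCh38.p13; the annotation and strand setting are not given in the sources used here. The deposited FPKM values were recomputed from counts, exonic size and library totals for 100% of values, within 0.005. Sample columns that were not used numbered 0. Coordinates are those of the table.

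Counts were tested with edgeR version 4.0.16 in R version 4.3.3: TMM scaling, filterByExpr by line (16110 genes) and quasi-likelihood F-tests, adjusted by the Benjamini-Hochberg method. Log2 fold changes carry standard errors and 95% intervals. The code was tested on simulated data. Alternatives were DESeq2 (the study's tool, run here in version 1.42.0), upper quartile scaling, no filter, each library left out, the replicate number as a block, the mean of both hairpin contrasts, and MICA and MICB summed. A crossed block was added after seeing the data. The members and gene lists were chosen with earlier results of these data known. Some genes of the lists are not reported here by name. Named genes were all members, HMGA2, up to 4 DEGs of each list by size of change, and tested genes within 100 kb of a member. ADORA2B, JAK1, CMTM6, RAET1E, ADAM10, ADAM17, MMP14, CD58, CD226 and AXL were named after their values were seen. So were JAK2, CMTM4, TRIM21, ZDHHC9, GSK3B, QPCTL, CSF1R, ITGAM, CD14 and CD68.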

Additional observations from a re-analysis of the deposited data

Results flagged for a closer look

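Of the 9 tested members, 6 differed between the knockdown lines in a direct test, edgeR's quasi-likelihood test of shHMGA2-2 against shHMGA2-1, where 24.5% of all tested genes were higher and 25.7% lower. CD274 was higher in shHMGA2-2 by 2.13 on the log2 scale (adjusted p = 7.79e-12), CD276 by 0.60 (adjusted p = 3.51e-05) and CD47 by 0.32 (adjusted p = 0.000896). NT5E (-0.57, adjusted p = 2.8e-08), MICB (-0.27, adjusted p = 0.00966) and NECTIN2 (-0.19, adjusted p = 0.0459) were lower. The hairpin, the clone and the amount of HMGA2 left changed together between these lines and cannot be told apart.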

How the results depend on the processing

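Over the 9 members and all alternatives, 327 of 375 values kept their direction and their side of the threshold, 19 no longer passed, 20 newly passed and 9 changed sign. The sign changes were in genes near 0. NECTIN2 in shHMGA2-1 was -0.006 with DESeq2, -0.005 with no filter and -0.08 to 0.10 with single libraries left out. PVR in shHMGA2-2 was 0.11 with upper quartile scaling and -0.06 to 0.03 with single libraries left out. With both lines pooled, upper quartile scaling gave 0.007 for PVR and for NECTIN2. This scaling moved the median of all genes in shHMGA2-2 from 0.03 to 0.14. It raised the share of higher genes among all calls from 47.2% to 58.8% in shHMGA2-1 and from 44.5% to 55.7% in the pooled comparison, and the members past the test in shHMGA2-2 from 2 to 4.

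Member values moved most often between the knockdown lines, where 73 of 92 kept their direction and side of the threshold. Counts of DEGs moved most in the pooled comparison, whose biological coefficient of variation was 0.291 beside 0.0583 with 3 groups. Its DEGs numbered 498, against 1028 with DESeq2, 138 with the replicate block, 2102 for the mean of both hairpin contrasts and 4 to 480 with single libraries left out (4 without either shNC library). Its members past the test numbered 1, against 0 with the replicate block, 7 for the mean of contrasts and 0 to 1 with single libraries left out. In the pooled model the difference between the knockdown lines counts as error, whereas the mean of contrasts comes from a model with 3 groups. Leaving out an shNC library leaves a single control library. How much each of these settings adds was not tested. Replicate numbers did not pair the libraries: across genes, deviations of same-numbered libraries correlated at -0.024, 0.0036 and -0.18. In the 3-group model the replicate block ended 1 member's call, NECTIN2 between the knockdown lines (adjusted p = 0.082), and with the lines pooled it ended that of CD47 (adjusted p = 0.0872). A crossed block between the knockdown lines gave 2441 DEGs against 2432. Genes with few counts, such as PDCD1LG2, carried the widest intervals.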

Other observations

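Genes close to the members did not share 1 pattern. Of 92 genes in the table within 100 kb of a member, 25 were tested. HLA-B, a class I antigen gene 32.7 kb from MICA, rose by 1.10 in shHMGA2-1 and by 2.52 in shHMGA2-2 (adjusted p = 4.37e-10 and 9.2e-18), whereas MICA did not pass in shHMGA2-2. HCP5, a noncoding gene between MICA and MICB, rose in shHMGA2-2 (1.93, adjusted p = 0.00831), from only 6 and 3 counts in shNC to 18 and 19. DDX39B, an RNA helicase gene 19.1 kb from MICB, rose in both lines (0.39 and 0.44, adjusted p = 0.000173 and 1.29e-05). NFKBIL1, ATP6V1G2, MICB-DT and ENSG00000272221 did not pass in either line.

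IFT57 and BCL3, near other members, passed in opposite directions in the 2 knockdown lines. IFT57, a cilium transport gene 69 kb from CD47, fell by 0.87 in shHMGA2-1 and rose by 0.49 in shHMGA2-2 (adjusted p = 4.86e-07 and 0.000131). BCL3, an NF-kB cofactor gene between PVR and NECTIN2, fell by 1.13 and rose by 0.76 (adjusted p = 0.000629 and 0.00182). Near NECTIN2, BCAM, a laminin receptor gene, rose in both lines (0.66 and 0.91, adjusted p = 0.000986 and 6.35e-06), and APOC1, an apolipoprotein gene, rose in shHMGA2-1 (1.81, adjusted p = 0.00033). TOMM40, CLPTM1 and ENSG00000267114 did not pass against shNC in either line. CLPTM1 just passed between the knockdown lines, lower in shHMGA2-2 (-0.19, adjusted p = 0.0441). NPTN near CD276 (0.44, adjusted p = 1.59e-05) and SNX14 near NT5E (0.34, adjusted p = 0.0187) rose in shHMGA2-2. ENSG00000279277 near CD47 also rose there (1.59, adjusted p = 0.0354), but from only 3 and 5 counts in shNC to 13 and 13. LINC02535 near NT5E and CEACAM16-AS1 over PVR did not pass.

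Some markers of line identity also moved. Of the 7 markers of a mesenchymal-like TNBC line, 1 rose and 4 fell in shHMGA2-1, and 2 rose and 3 fell in shHMGA2-2. AXL was among those that fell in both, by 0.42 and 0.94 (adjusted p = 4.98e-06 and 1.6e-12). EGFR fell by 0.75 in shHMGA2-1 and by 1.54 in shHMGA2-2 (adjusted p = 1.95e-09 and 7.11e-16). KRT8, a luminal keratin, rose by 1.25 in shHMGA2-2 (adjusted p = 1.5e-12), and GATA3, a luminal transcription factor usually low in TNBC, went from 58 and 41 counts in shNC to 262 and 318 there. HCLS1, a leukocyte gene, had 21 and 15 counts with shNC and none in the 4 knockdown libraries, and PECAM1, an endothelial gene, had 14 and 11 counts in shNC and at most 2 elsewhere.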
